A study of Mus musculus with 9 samples.

Results

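The genes described here encode enzymes that add, remove or copy methyl groups on DNA and the core of the complex that writes the Polycomb mark on histone H3. They are the DNA methyltransferases Dnmt1, Dnmt3a and Dnmt3b, the Dnmt1 partner Uhrf1, the oxidases Tet1, Tet2 and Tet3, and the core subunits Ezh2, Eed and Suz12 of Polycomb repressive complex 2 (PRC2). Every probe set whose platform gene symbol was among these names was taken. This gave 28 of the 34945 probe sets that carry exactly 1 symbol, and 10 of the 18193 genes measured. The rule used symbols alone and no signal.

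RNA of cultured mouse cells was hybridised to 9 Affymetrix arrays, 3 in each of 3 groups. Glioma stem cells (GSC) were grown from optic gliomas in the optic nerve of C57BL/6 mice aged 3 months with the genotype Nf1+/-GFAP CKO, a name used for mice that are heterozygous for Nf1 and lose their remaining copy in cells of the GFAP-expressing lineage. Cultures of neural stem cells (NSC) were made from tissue around the third ventricle of C57BL/6 Nf1flox/flox pups at postnatal day 1, and a Cre virus turned some of them into the Nf1-null NSC. The wild-type NSC were given a LacZ virus as control, so they carried the same floxed alleles. All cultures grew in low-attachment dishes with FGF and EGF at 20 ng/ml each. Tumour origin, age of the mice, tissue, background genotype and virus all separate GSC from the NSC at once, and their parts cannot be told apart. Independent cultures are stated for the NSC arrays, while separate tumours are not stated for the GSC arrays, so p-values measure the spread between these arrays, which may be partly technical. The number of arrays limits the precision of every value.

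Dnmt1 copies methylation onto the new strand after DNA replication, and Uhrf1 brings it to hemimethylated sites. Dnmt3a and Dnmt3b set new methylation, and the Tet enzymes oxidise 5-methylcytosine as a step towards its removal. Ezh2 is the methyltransferase of PRC2 that methylates lysine 27 of histone H3 (H3K27), Eed reads that mark and stimulates the enzyme, and Suz12 holds the complex together. In neural stem cells these systems are known for keeping developmental genes silent and for their part in the timing of neurogenesis and gliogenesis.

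The signals checked the labels as follows. Nf1, which encodes the Ras GTPase-activating protein neurofibromin, had signals of 623, 600.1 and 549 on the GSC arrays, 430.3, 646 and 577 on the Nf1-null NSC arrays, and 1139.5, 919.5 and 999.9 on the wild-type NSC arrays. Both Nf1-mutant groups lay below every wild-type array, and the difference from wild-type NSC passed the test in GSC (log2 difference -0.78, adjusted p = 0.0441, and 0.0783 with the replicate number as a block) and not in Nf1-null NSC (-0.90, adjusted p = 0.123). The sources used here do not place this probe set relative to the deleted exons. The stem cell markers Nes and Sox2 were present in all groups, at 8932 to 11388 and 28137 to 40343 in GSC, 3479.9 to 9490.2 and 36994 to 39815 in Nf1-null NSC, against 3122 to 5326 and 42162 to 49794 in wild-type NSC. Summed signals of 9 microglial markers were 890.0 to 1335 in GSC, 968 to 1249 in Nf1-null NSC, against 1027 to 1292 in wild-type NSC, and no marker gene was listed at exactly 0. The ratio of 3' to 5' Actb signal, a sign of RNA integrity, was 1.73 to 1.85 in GSC, 1.49 to 1.67 in Nf1-null NSC, against 1.87 to 1.88 in wild-type NSC, and its part in the results was not tested.

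Signals were compared as log2(value + 1) by limma over all 18193 genes, each gene stood for by its brightest probe set, and a gene was called at a Benjamini-Hochberg adjusted p under 0.05. Of the 10 genes, 8 were among the 9097 brighter genes and 2, Dnmt3b and Tet3, were not. In GSC against wild-type NSC, Tet2 fell and no other gene of the 10 passed, so 0 were called higher and 1 lower. Over all genes 9.06% were called in this comparison, 3.46% higher and 5.6% lower, so a count of 1 in 10 is near the background. The arrays of the groups did not overlap for 7 of the 10 genes, 5 higher and 2 lower in GSC, where 34.8% of all genes did not overlap, 13.9% higher and 20.9% lower. The median difference of the 10 genes was 0.50 on the log2 scale, beside -0.09 over all genes. When limma's variance prior was allowed to follow the mean signal (a mean-variance trend), Dnmt1, Uhrf1 and Eed passed as higher and Tet1 and Tet2 as lower, where 14.7% of all genes passed, 6.16% higher and 8.57% lower. A fit that blocked on replicate number passed Dnmt1 (adjusted p = 0.0207) and Uhrf1 (0.0301) as higher and Tet2 (0.0417) as lower, where 8.44% of all genes passed. The GSC and wild-type arrays were not read as paired by number. An exact permutation test of 3 arrays against 3 cannot give a p below 0.1, so calls for single genes rest on limma's model of the spread. In that model 6 degrees of freedom came from the gene's own arrays and 1.63 from the spread pooled across genes.

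Between GSC and Nf1-null NSC limma called none of the 10 genes, against 1.75% of all genes (319 genes). A block on the replicate number left 193 genes, 1.06%, and again none of the 10. By unadjusted p under 0.05, 1 of the 10 passed, beside 16.5% of all genes, and the mean-variance trend called 0 where it called 4.05% of all genes. The arrays did not overlap for 1 gene, Tet1 (lower), where 21.9% of all genes did not overlap and 12.7% did so with GSC lower. The median difference of the 10 genes was 0.06 on the log2 scale, beside -0.04 over all genes. With the block and the trend together Dnmt1 was called higher in GSC (adjusted p = 0.0440), where 6.23% of all genes were called.

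In Nf1-null against wild-type NSC limma called 0 of the 10 genes, which is also its percentage over all genes (0%), and the mean-variance trend called 0 of them where it called 1.81% of all genes. By unadjusted p under 0.05, 3 of the 10 passed, as did 3048 of all 18193 genes (16.8%). The arrays did not overlap for 2 genes, Eed (higher) and Tet2 (lower), where 23.8% of all genes did not overlap, 9.75% higher and 14.1% lower. The median difference was 0.45 on the log2 scale, beside -0.06 over all genes. NSC arrays of the same number deviated together, and with the replicate block and the mean-variance trend in 1 fit 4 of the 10 genes passed as higher in Nf1-null NSC, where 5.35% of all genes passed. They were Dnmt1 (adjusted p = 0.0187), Uhrf1 (0.0254), Eed (0.0316) and Suz12 (0.0463), and the same 4 were called with the block over the brighter 9097 genes alone, where 11.9% of those genes were called. The errors and intervals given for single genes come from the fit without a block. With the block alone the errors of this comparison were 0.16 for Dnmt1, 0.45 for Uhrf1, 0.14 for Ezh2, 0.13 for Eed and 0.14 for Suz12. That fit called 0 of the 10 genes and 0 of all genes, with the lowest adjusted p of the 10 at 0.133 (Dnmt1). The comparisons with wild-type NSC share their control arrays, and the direct comparison of GSC with Nf1-null NSC is the test of the difference between them.

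**Figure D1:**
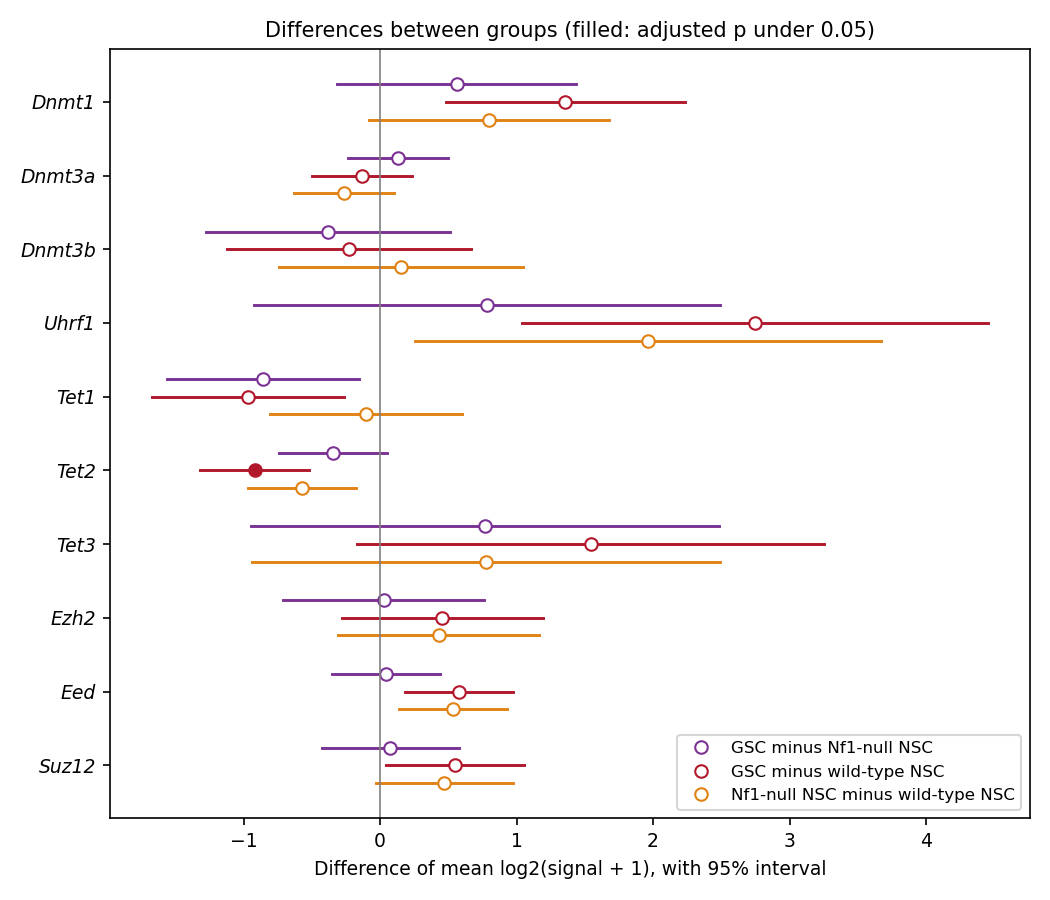
Difference of mean log2(signal + 1) between groups for each of the 10 genes, with the 95% interval of the limma fit without a block. Colours give the 3 comparisons, and filled points have an adjusted p under 0.05. Tet2 in GSC against wild-type NSC (-0.92) is the filled point, and the widest intervals are those of Uhrf1 and Tet3.

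The maintenance pair Dnmt1 and Uhrf1 had their highest signals in GSC and their lowest in wild-type NSC. Dnmt1 signal was 10325, 6659 and 5694 on GSC arrays 1 to 3, 7747, 4426 and 3559 on the Nf1-null NSC arrays, and 4049, 2242.5 and 2562 on the wild-type NSC arrays. All GSC arrays were above all wild-type arrays, the Nf1-null arrays overlapped both, and array 1 was the highest of each group. The mean was 7559 ± 2443 in GSC, 5244 ± 2211 in Nf1-null NSC and 2951 ± 964 in wild-type NSC (SD, n = 3 each). GSC stood 1.36 ± 0.38 (SE) above wild-type NSC on the log2 scale, or 2.56-fold, which missed the threshold (adjusted p = 0.0656) and passed with the mean-variance trend (0.0213) and with the replicate block (0.0207). The difference of Nf1-null from wild-type NSC was 0.80 ± 0.38 (adjusted p = 0.340) and that of GSC from Nf1-null NSC 0.56 ± 0.38 (adjusted p = 0.515), so neighbouring groups in this order did not differ beyond their spread in the fit without a block. The other 2 probe sets of Dnmt1 gave 1.53 and 1.68 in GSC against wild-type NSC.

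Uhrf1 had the largest difference of the 10 genes in GSC against wild-type NSC. Its signal was 10861, 5120.1 and 5673 on the GSC arrays, 7432, 3515 and 2353 on the Nf1-null NSC arrays, and 2551, 369 and 1104 on the wild-type NSC arrays. The GSC arrays did not overlap the wild-type arrays, while 1 Nf1-null array was below 1 wild-type array, and array 1 was again the highest of each group. GSC were 6.71-fold above wild-type NSC (log2 difference 2.75 ± 0.73, 95% interval 1.04 to 4.45, adjusted p = 0.0593, with the trend 0.0184, with the block 0.0301). With 1 array left out this difference lay between 2.02 (without wild-type array 2) and 3.41 (without wild-type array 1, adjusted p = 0.0430). Nf1-null NSC were 3.89-fold above wild-type NSC (1.96 ± 0.73, adjusted p = 0.246, with the block 0.151), which lay between 1.23 and 2.63 without the same arrays. GSC stood 0.79 ± 0.73 above Nf1-null NSC (adjusted p = 0.651). The dimmer probe set of Uhrf1 gave 2.67 in GSC against wild-type NSC.

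**Figure D2:**
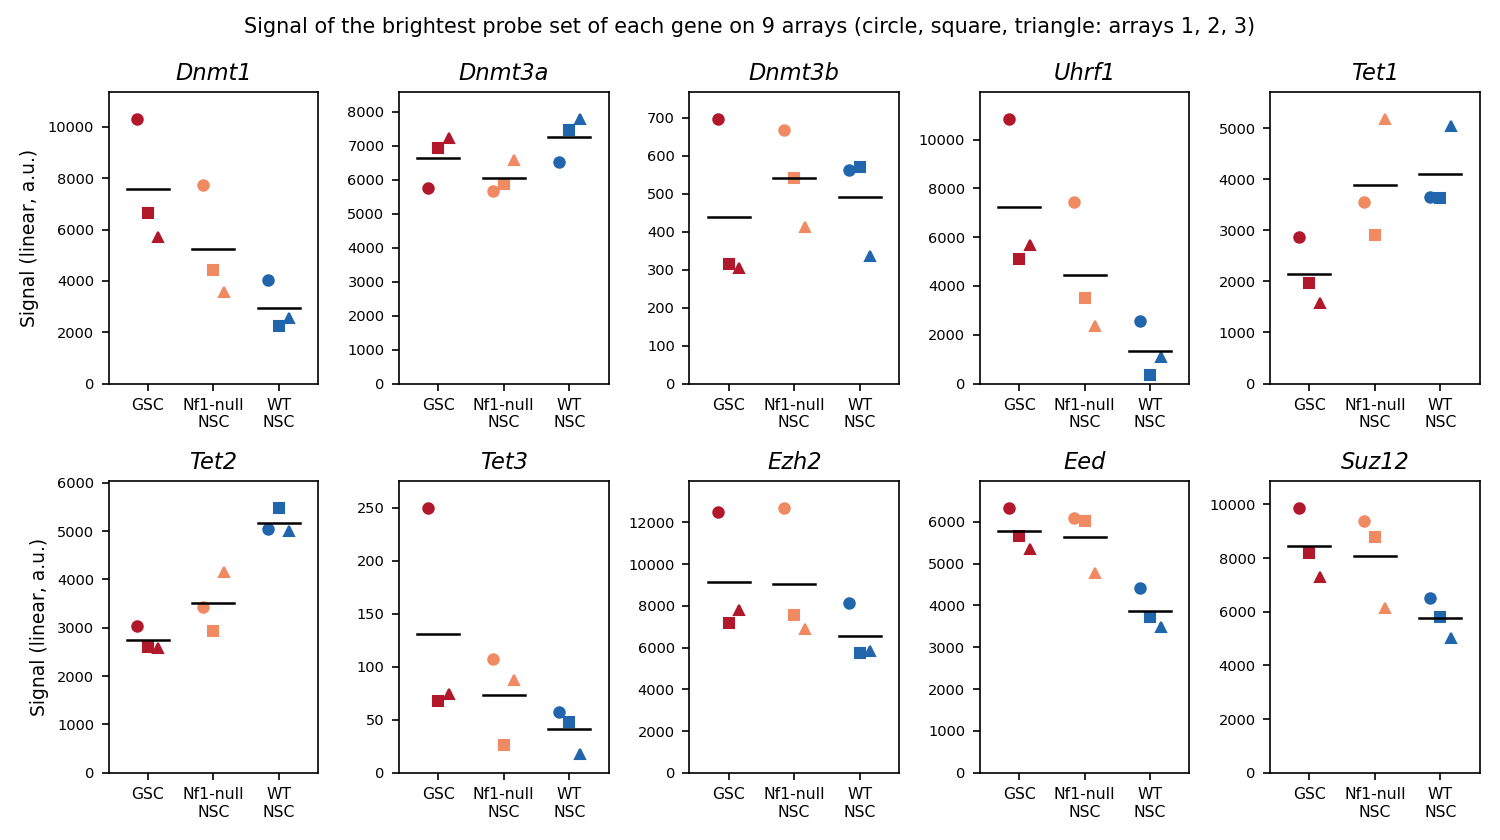
Signal of the brightest probe set of each of the 10 genes on every array, on a linear scale from 0 in arbitrary units (a.u.); circle, square and triangle are arrays 1, 2 and 3 of a group and the bar is the group mean. Dnmt1, Uhrf1, Tet3, Eed and Suz12 are higher on every GSC array than on any wild-type array, Tet1 and Tet2 are lower, and array 1 is the highest of each group for Dnmt1, Uhrf1, Tet3, Ezh2, Eed and Suz12.

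The promoter windows of Dnmt1 and Uhrf1 are shown because these genes had the largest differences among the brighter members. Binding to promoters was not measured. RefSeq windows of 300 bases (250 before and 50 after the annotated start, build GRCm38.p6) were found for all 10 genes, 15 windows in total. They were searched on both strands for the E2F-type letters TTCCCGC with the variants TTCGCGC and also TTGGCGC, and for the CCAAT box. Capitals mark a match of any of these or of its reverse complement, and where CCAAT overlaps its own reverse complement both count. E2F-type letters stood in 5 of the 15 windows and in 8.1% of all 32851 windows of the table. CCAAT stood in 8 of the 15 windows and in 37.4% of all. Each of the E2F-type letters contains CG. The 5 windows with a match had 12 to 41 CpG sites, beside a median of 7 over all windows, so the 8.1% is not a background of like CpG content. A match describes letters and not a bound site. Of the 3 Dnmt1 windows 1 (chr9:20952574-20952873, minus strand) held 3 E2F-type matches, and both Uhrf1 windows held 1, of which the more CpG-rich is shown (chr17:56304063-56304362, plus strand).
Dnmt1: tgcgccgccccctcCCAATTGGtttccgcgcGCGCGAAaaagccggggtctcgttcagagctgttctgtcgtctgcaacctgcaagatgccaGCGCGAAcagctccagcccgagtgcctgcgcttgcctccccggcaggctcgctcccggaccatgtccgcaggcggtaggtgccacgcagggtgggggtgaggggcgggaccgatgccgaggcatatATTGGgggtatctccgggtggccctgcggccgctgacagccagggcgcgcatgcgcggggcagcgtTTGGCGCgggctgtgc
Uhrf1: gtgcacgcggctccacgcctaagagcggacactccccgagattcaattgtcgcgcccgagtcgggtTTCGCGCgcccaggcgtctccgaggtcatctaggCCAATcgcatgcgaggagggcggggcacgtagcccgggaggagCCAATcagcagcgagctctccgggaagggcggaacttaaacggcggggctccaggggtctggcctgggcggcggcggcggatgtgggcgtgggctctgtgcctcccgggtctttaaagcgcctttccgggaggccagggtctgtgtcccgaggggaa

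Partners and readers of DNA methylation moved in no common direction. Of 26 genes listed 23 were measured. In GSC against wild-type NSC 1 was called higher and 2 lower, where 9.06% of all genes were called. The median difference was -0.07 on the log2 scale beside -0.09 over all genes. Hells, a chromatin remodeller needed for methylation of repeats, had signals of 4694.5, 3509 and 3358 in GSC, 4461, 4155 and 1910.0 in Nf1-null NSC, against 1279, 514 and 599.8 in wild-type NSC. It rose in GSC against wild-type NSC (2.38 ± 0.44, adjusted p = 0.0236), and in Nf1-null NSC its difference from wild-type NSC was 2.16 ± 0.44 (adjusted p = 0.115, with the trend 0.0300). Uhrf2, the paralogue of Uhrf1, differed by -0.07 ± 0.16 in GSC against wild-type NSC (adjusted p = 0.825), a value named here outside the naming rule. In limma's test none of the list was called between GSC and Nf1-null NSC, where 3 had an unadjusted p under 0.05 (16.5% of all genes).

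The de novo methyltransferases gave no uniform picture. For Dnmt3a the brightest probe set, 1423063_at, read 5763, 6924.5 and 7211 in GSC, 5658, 5877.5 and 6583.5 in Nf1-null NSC, against 6524, 7463 and 7795.5 in wild-type NSC. The groups overlapped, and the difference of GSC from wild-type NSC was -0.13 ± 0.16 on the log2 scale (95% interval -0.50 to 0.23, adjusted p = 0.644). A further bright probe set of Dnmt3a, 1423065_at, read 3310.3, 4297 and 4332.5 in GSC, 2671, 2382 and 2266 in Nf1-null NSC, against 2217, 2213 and 2533 in wild-type NSC. There all GSC arrays were above all NSC arrays of both kinds.

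Tested over all 34945 probe sets, 1423065_at was higher in GSC than in wild-type NSC by 0.77 ± 0.17 (adjusted p = 0.0423), and than in Nf1-null NSC by 0.70 ± 0.17 (adjusted p = 0.120, with the trend 0.0327). The probe set 1423066_at of Dnmt3a read 3613, 3988 and 4313 in GSC, 2759, 2581 and 2628 in Nf1-null NSC, against 2314, 2716 and 2887 in wild-type NSC. It differed by 0.59 ± 0.16 from wild-type NSC (adjusted p = 0.0652, with the trend 0.0173) and by 0.58 ± 0.16 from Nf1-null NSC (adjusted p = 0.150, with the trend 0.0452). The dim 1423064_at gave 0.72 ± 0.49 and 1460324_at gave -0.27 ± 0.16 in GSC against wild-type NSC, so the 5 probe sets of Dnmt3a disagreed in sign. The sources used here do not say which transcripts each probe set detects.

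Dnmt3b was not among the brighter genes. Its brightest probe set read 698, 314 and 305.5 in GSC, 667, 542 and 412 in Nf1-null NSC, against 563, 571 and 336.5 in wild-type NSC. The groups overlapped, and the log2 difference of GSC from wild-type NSC was -0.23 ± 0.38 (95% interval -1.12 to 0.66, adjusted p = 0.755). The dimmer Dnmt3b probe set 1418351_a_at read 275.4, 243.8 and 280.5 in GSC, 432.8, 178.9 and 205.5 in Nf1-null NSC, against 365.7, 512.1 and 292.9 in wild-type NSC. There the GSC arrays were below all wild-type arrays, with a difference of -0.51 ± 0.36 that was not called (adjusted p over probe sets 0.426).

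**Figure D3:**
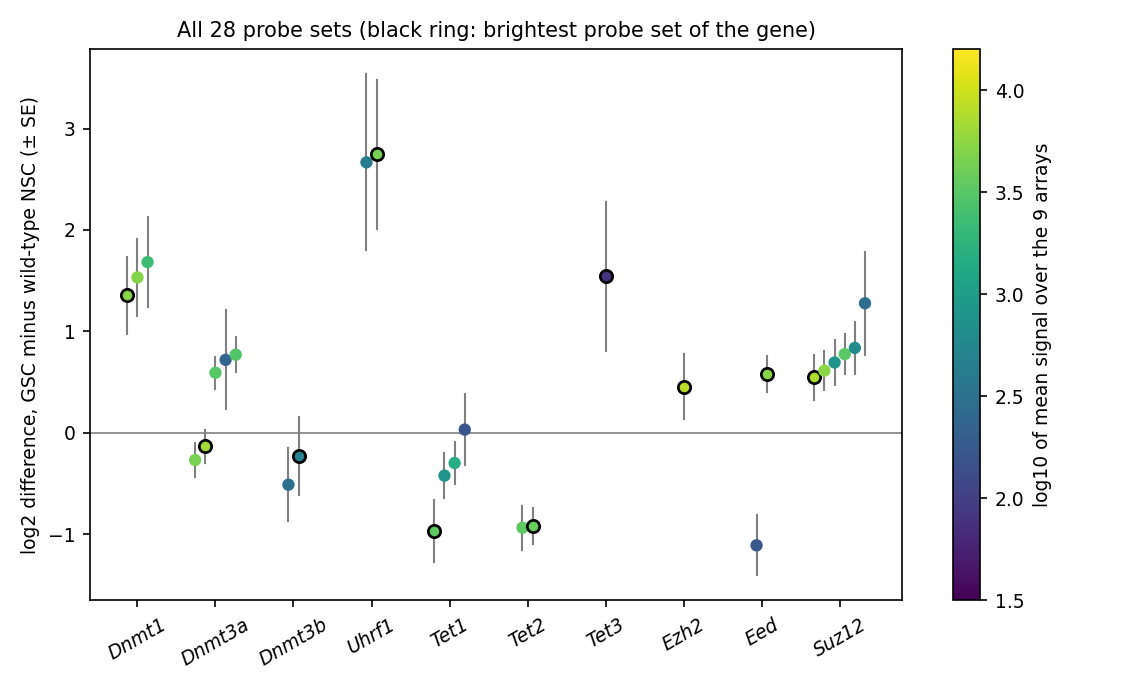
log2 difference of GSC from wild-type NSC (± SE) for all 28 probe sets, grouped by gene; colour gives log10 of the mean signal and a black ring marks the brightest probe set of each gene. All probe sets of Dnmt1, Uhrf1 and Suz12 lie above 0 and both of Tet2 below it, while those of Dnmt3a, Tet1 and Eed fall on both sides.

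Over the 28 probe sets, 1 was called higher and 2 lower in GSC against wild-type NSC, where 6.83% of all probe sets were called, and with the mean-variance trend 10 were called higher and 3 lower, where 12.7% were called. Between GSC and Nf1-null NSC limma called none (1.06% over all probe sets, with 4 of the 28 and 15.3% of all at an unadjusted p under 0.05), and with the trend the 2 bright Dnmt3a probe sets 1423065_at and 1423066_at were called higher (3.31% over all). In Nf1-null against wild-type NSC none of the 28 was called (0% over all, with 10 of the 28 and 15.1% of all at an unadjusted p under 0.05), and none with the trend (1.17%). Probe sets of 1 gene share its transcripts and are not independent.

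Among the Tet enzymes, Tet2 fell in GSC. Its signal was 3038, 2603 and 2574 on the GSC arrays, 3423, 2937 and 4149.7 on the Nf1-null NSC arrays, and 5041, 5481 and 4992 on the wild-type NSC arrays. Every GSC and every Nf1-null array was below every wild-type array. The mean was 2738 ± 260.3 in GSC, 3503 ± 610.3 in Nf1-null NSC and 5171 ± 269.5 in wild-type NSC (SD, n = 3 each). GSC were 1.89-fold below wild-type NSC (log2 difference -0.92 ± 0.17, 95% interval -1.32 to -0.52, adjusted p = 0.0237), and the other Tet2 probe set gave -0.94 ± 0.22 (adjusted p over probe sets 0.0447). The call was lost when any of 5 arrays was left out, with an adjusted p of 0.0905 without GSC array 2, 0.0850 without GSC array 3, 0.0550 without wild-type array 1, 0.0860 without wild-type array 2 and 0.0620 without wild-type array 3. The log2 difference of Nf1-null from wild-type NSC was -0.57 ± 0.17 (adjusted p = 0.188) and that of GSC from Nf1-null NSC -0.34 ± 0.17 (adjusted p = 0.368), neither past the threshold. The Tet2 promoter window (chr3:133544341-133544640, minus strand), shown because Tet2 was the gene called, had the most CpG sites of the 15 windows at 57, beside a median of 7 over all windows, and no match to the letters searched.
Tet2: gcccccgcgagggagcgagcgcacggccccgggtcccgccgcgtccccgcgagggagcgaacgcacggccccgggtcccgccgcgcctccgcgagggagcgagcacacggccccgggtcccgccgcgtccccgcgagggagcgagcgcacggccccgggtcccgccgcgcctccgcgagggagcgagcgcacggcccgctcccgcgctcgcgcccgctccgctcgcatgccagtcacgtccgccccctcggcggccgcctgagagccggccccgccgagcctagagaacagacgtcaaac

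Tet1 read 2879, 1964 and 1584 in GSC, 3549, 2908 and 5191 in Nf1-null NSC, against 3648, 3639.7 and 5038 in wild-type NSC. The GSC arrays were below all 6 NSC arrays, and the 2 NSC groups overlapped. The log2 difference of GSC was -0.97 ± 0.30 from wild-type NSC (adjusted p = 0.0900, with the trend 0.0358) and -0.86 ± 0.30 from Nf1-null NSC (unadjusted p = 0.0228, adjusted p = 0.216). Its other 3 probe sets gave -0.42, -0.30 and 0.03 in GSC against wild-type NSC, smaller than the brightest one. Tet3 was dim, at 249.8, 67.6 and 74.5 in GSC, 106.8, 26.5 and 87.5 in Nf1-null NSC, against 56.9, 48.2 and 17.4 in wild-type NSC. Its GSC arrays were above the wild-type arrays, but the difference of 1.54 ± 0.74 missed the threshold (adjusted p = 0.231).

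The genes called lower in the list of partners and readers were Ogt and Cxxc4. Ogt, the O-GlcNAc transferase that binds Tet2 and Tet3, had signals of 11253, 11168 and 11329 in GSC, 14921, 14414 and 16408 in Nf1-null NSC, against 18384, 21690.5 and 18466 in wild-type NSC. It fell in GSC against wild-type NSC (-0.79 ± 0.14, adjusted p = 0.0206), with the Nf1-null arrays between the other groups and overlapping neither. Cxxc4, which encodes the Tet2-binding protein IDAX, had signals of 860.4, 725 and 587 in GSC, 993.5, 522 and 991 in Nf1-null NSC, against 1892, 2406 and 1575 in wild-type NSC. It fell in GSC against wild-type NSC (-1.43 ± 0.31, adjusted p = 0.0325, and 0.0571 with the replicate block). Of other listed genes tied to Tet activity, Cxxc5 (0.37), Idh1 (-0.41) and Idh2 (0.25) were not called, and their log2 differences had both signs.

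Over the 9 arrays and the brighter 9097 genes, the log2 signals most like that of Tet2 were those of Pygb (Pearson r = 0.992), which encodes the brain form of glycogen phosphorylase, Hbp1 (0.987), which encodes an HMG-box transcriptional repressor, and Ints6l (0.986), related to a subunit of the Integrator complex. These values describe likeness over 3 groups of arrays and carry no test. All of them fell in GSC against wild-type NSC, Pygb by 2.57 on the log2 scale (adjusted p = 0.0195), Hbp1 by 1.01 (adjusted p = 0.0272) and Ints6l by 0.90 (adjusted p = 0.0309), as a gene chosen for likeness to Tet2 must tend to do.

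The PRC2 core was higher on average in both Nf1-mutant groups than in wild-type NSC, without a call in the main test. Ezh2 read 12520.3, 7178 and 7809.6 in GSC, 12705, 7554 and 6904 in Nf1-null NSC, against 8119.7, 5759.8 and 5815 in wild-type NSC. The groups overlapped, and array 1 was the highest of each by a wide margin. The difference of GSC from wild-type NSC was 0.46 ± 0.32 (adjusted p = 0.406) and that of Nf1-null from wild-type NSC 0.43 ± 0.32 (adjusted p = 0.539, with the block 0.219). Between GSC and Nf1-null NSC it was 0.03 ± 0.32, with a 95% interval of -0.71 to 0.76 (adjusted p = 0.978). Ezh2 is measured by 1 probe set.

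Eed read 6337, 5661 and 5355 in GSC, 6084, 6031 and 4769 in Nf1-null NSC, against 4407, 3735 and 3486 in wild-type NSC. All arrays of both Nf1-mutant groups were above all wild-type arrays. The difference from wild-type NSC was 0.58 ± 0.17 in GSC (adjusted p = 0.0752, with the trend 0.0254) and 0.54 ± 0.17 in Nf1-null NSC (adjusted p = 0.199, with the trend 0.0879, with the block 0.160). Between GSC and Nf1-null NSC it was 0.04 ± 0.17, with a 95% interval of -0.35 to 0.44. A dim second Eed probe set, with signals of 72.1 to 279.4 over the 9 arrays, went the other way in GSC against wild-type NSC (-1.11 ± 0.30, adjusted p = 0.0666).

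Suz12 read 9876, 8205 and 7299 in GSC, 9366, 8769.8 and 6152 in Nf1-null NSC, against 6498.5, 5802.5 and 5032 in wild-type NSC. The GSC arrays were above all wild-type arrays, and 1 Nf1-null array fell within the wild-type range. The difference of GSC from wild-type NSC was 0.55 ± 0.22 (adjusted p = 0.160), and all 6 probe sets of Suz12 had a positive difference, between 0.55 and 1.28. In Nf1-null against wild-type NSC it was 0.47 ± 0.22 (adjusted p = 0.327, with the block 0.187). The Ezh2 window (chr6:47594981-47595280, minus strand) and the Suz12 window (chr11:79992856-79993155, plus strand) each held 1 E2F-type match, marked in capitals with CCAAT as above, and the window of Eed held none. With Dnmt1 and Uhrf1 these make 4 of the 10 genes with a match in a window.
Ezh2: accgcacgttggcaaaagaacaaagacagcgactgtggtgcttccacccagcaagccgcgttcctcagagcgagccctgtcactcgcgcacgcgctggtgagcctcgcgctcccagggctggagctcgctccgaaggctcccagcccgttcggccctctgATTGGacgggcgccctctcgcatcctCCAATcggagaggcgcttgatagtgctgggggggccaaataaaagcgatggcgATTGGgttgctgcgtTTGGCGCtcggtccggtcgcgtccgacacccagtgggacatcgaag
Suz12: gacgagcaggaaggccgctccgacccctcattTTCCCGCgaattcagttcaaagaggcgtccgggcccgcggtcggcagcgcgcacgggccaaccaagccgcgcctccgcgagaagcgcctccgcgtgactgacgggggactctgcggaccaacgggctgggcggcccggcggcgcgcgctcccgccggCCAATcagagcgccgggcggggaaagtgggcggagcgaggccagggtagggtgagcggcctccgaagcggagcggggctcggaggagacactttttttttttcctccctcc

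Other subunits of Polycomb complexes were not called. All 10 further PRC2 subunits listed were measured, with 0 called by limma in any comparison and a median difference of -0.05 in GSC against wild-type NSC. At an unadjusted p under 0.05 they numbered 3 in that comparison, 0 between GSC and Nf1-null NSC and 1 between the NSC groups. Over all genes 16.5% passed at this unadjusted p between GSC and Nf1-null NSC and 16.8% between the NSC groups. The share is not given here for GSC against wild-type NSC, so unadjusted counts of that comparison have no background beside them. Jarid2, a DNA-binding cofactor of PRC2, had signals of 4260.4, 2597 and 1863 in GSC, 5005, 3002 and 4261 in Nf1-null NSC, against 6572, 6072 and 6062 in wild-type NSC. Its difference in GSC against wild-type NSC was -1.18 ± 0.32 (adjusted p = 0.0612, with the trend 0.0192). Rbbp7, a histone-binding subunit, differed by 0.58 ± 0.21 (adjusted p = 0.125). Of 22 listed subunits of Polycomb repressive complex 1 (PRC1), which compacts chromatin and ubiquitinates histone H2A, 20 were measured and limma called 0 in any comparison (at an unadjusted p under 0.05, 4 in GSC against wild-type NSC, 5 in GSC against Nf1-null NSC and 3 between the NSC groups). Their median difference in GSC against wild-type NSC was -0.28, with 16 of 20 negative. Scmh1 (-0.62 ± 0.18, adjusted p = 0.0756) and Phc3 (-0.57 ± 0.17, adjusted p = 0.0839, with the trend 0.0305) had the smallest adjusted p of that list.

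All 6 genes for H3K27 demethylases and the deubiquitinase complex PR-DUB had a negative difference in GSC against wild-type NSC. Their median was -0.28, beside -0.09 over all genes. Of the 6 genes 1 was called, where 9.06% of all genes were called. The arrays of 3 lay lower in GSC without overlap, where 20.9% of all genes did. In GSC against Nf1-null NSC 3 differences were positive and 3 negative, with a median of -0.02. Kdm6b, an H3K27 demethylase that opposes PRC2, had signals of 2999.6, 2754 and 2331 in GSC, 4054, 5557 and 4748 in Nf1-null NSC, against 4348, 4712 and 5193.5 in wild-type NSC. The GSC arrays were below all NSC arrays, and Kdm6b fell against wild-type NSC (-0.82 ± 0.18, adjusted p = 0.0335, and 0.0566 with the replicate block). Against Nf1-null NSC its difference was -0.82 ± 0.18 (adjusted p = 0.0782, with the trend 0.0200). Of 17 measured histone methyltransferases of other marks 0 were called by limma in any comparison. At an unadjusted p under 0.05, 6 passed in GSC against wild-type NSC, a count without a share over all genes beside it. In GSC against Nf1-null NSC 2 did (16.5% of all genes), and between the NSC groups 2 (16.8%). With the trend 1 passed as higher and 4 as lower in GSC against wild-type NSC, where 6.16% and 8.57% of all genes did. The smallest adjusted p there were those of the lysine methyltransferase Smyd2 (0.75 ± 0.20, adjusted p = 0.0540) and of Nsd1, an H3K36 methyltransferase (-0.48 ± 0.14, adjusted p = 0.0707).

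Genes known to be kept silent by these systems were mostly dim and moved in both directions. Of 17 measured germline genes whose promoters are commonly methylated in somatic cells, 0 rose and 2 fell in GSC against wild-type NSC. Over all genes 3.46% were called higher and 5.6% lower in this comparison. Slc25a31, a testis ADP/ATP carrier, was at 2.2, 3.2 and 2.5 in GSC, 53.9, 67.3 and 123.5 in Nf1-null NSC, against 136.7, 76.4 and 80.4 in wild-type NSC, signals near the bottom of the arrays (adjusted p = 0.00421 against wild-type NSC, 0.00493 against Nf1-null NSC). Brdt, a testis bromodomain gene, had -1.22 ± 0.24 against wild-type NSC (adjusted p = 0.0269). Of 20 measured genes known as Polycomb targets in stem cells, 1 rose and 2 fell in GSC against wild-type NSC, beside the same 3.46% and 5.6% of all genes. Foxf1, a mesenchymal transcription factor, read 485, 1366 and 990.5 in GSC, 105.6, 212 and 54.5 in Nf1-null NSC, against 155.5, 165.6 and 103.5 in wild-type NSC. It was higher in GSC against wild-type NSC (2.64 ± 0.55, adjusted p = 0.0311) and against Nf1-null NSC (3.01 ± 0.55, adjusted p = 0.0463, and 0.0550 with the replicate block). Foxa1, a pioneer transcription factor of endoderm, read 13.1, 24.1 and 40.2 in GSC, 246.9, 184.7 and 262.9 in Nf1-null NSC, against 172.3, 163.1 and 461.7 in wild-type NSC. The dimmest 25% of genes lay at mean signals up to about 84, so the GSC signals of Foxa1 were too low for a size of its fall, which was called against wild-type NSC (adjusted p = 0.0161) and Nf1-null NSC (0.0326). Tbx3, at 92.1, 132 and 57.3 in GSC and 333.5, 308.6 and 214.2 in wild-type NSC, fell as well (adjusted p = 0.0312). DNA methylation and histone marks were not measured on these arrays.

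**Figure D4:**
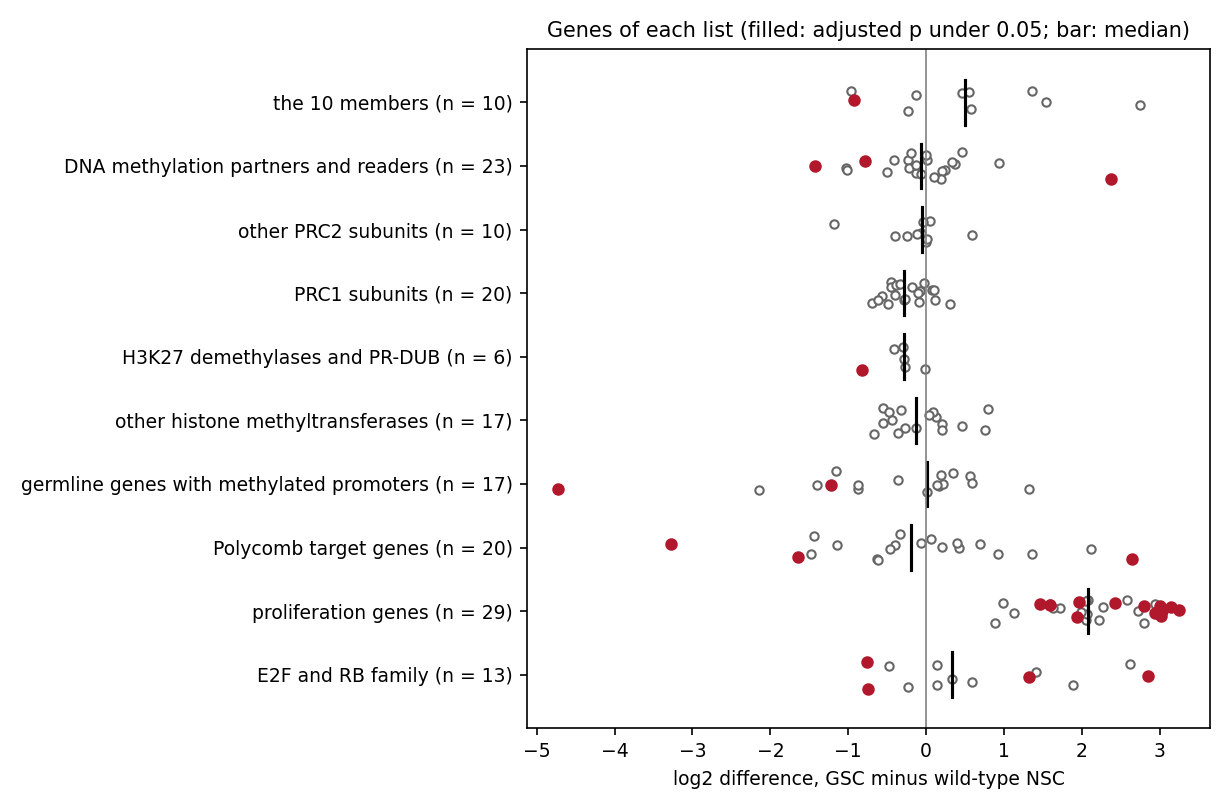
log2 difference of GSC from wild-type NSC for the 10 genes and for each gene of the lists; 1 point is 1 gene, filled points have an adjusted p under 0.05 and the bar is the median of the list. The proliferation genes lie apart on the right with a median of 2.08, while the medians of the lists of methylation partners (-0.07) and of PRC1 subunits (-0.28) lie near 0.

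Proliferation genes moved with several of the 10 genes. Of 29 measured proliferation genes 12 rose and 0 fell in GSC against wild-type NSC, where 3.46% of all genes rose and 5.6% fell. With the trend 26 rose, where 6.16% of all genes did. The median difference was 2.08 on the log2 scale and all 29 were positive. The leading ones were Gins2 (1.94, adjusted p = 0.0147) and Cdt1 (3.25, adjusted p = 0.0170), both needed to start DNA replication, and Ccne2 (3.00, adjusted p = 0.0200) and Cdc6 (2.93, adjusted p = 0.0201). In Nf1-null against wild-type NSC limma called 0 and the median was 1.73. There 26 had an unadjusted p under 0.05 (16.8% of all genes) and 2 passed with the trend (1.81%). Between GSC and Nf1-null NSC 0 passed in either fit, 0 had an unadjusted p under 0.05 and the median was 0.61. The mean log2 signal of the 29 genes, set relative to the wild-type mean, was 2.6, 2.02 and 2.03 on the GSC arrays, 2.35, 1.38 and 1.18 on the Nf1-null arrays, and 1.07, -0.84 and -0.23 on the wild-type arrays. Array 1 was the highest of each group here too, as it was for 6 of the 10 genes (Dnmt1, Uhrf1, Tet3, Ezh2, Eed and Suz12) and for 8.54% of all genes. Of 13 measured genes of the E2F and RB family 2 rose in GSC against wild-type NSC, E2f7 (2.84 ± 0.62, adjusted p = 0.0342) and Rbl1 (1.32 ± 0.28, adjusted p = 0.0311), and 2 fell, Rb1 (-0.76 ± 0.16, adjusted p = 0.0334, and 0.0547 with the replicate block) and E2f5 (-0.75 ± 0.17, adjusted p = 0.0383). In bulk RNA, fewer dividing cells and less RNA per cell cannot be told apart, and the part of proliferation in the differences of the 10 genes was not tested.

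**Figure D5:**
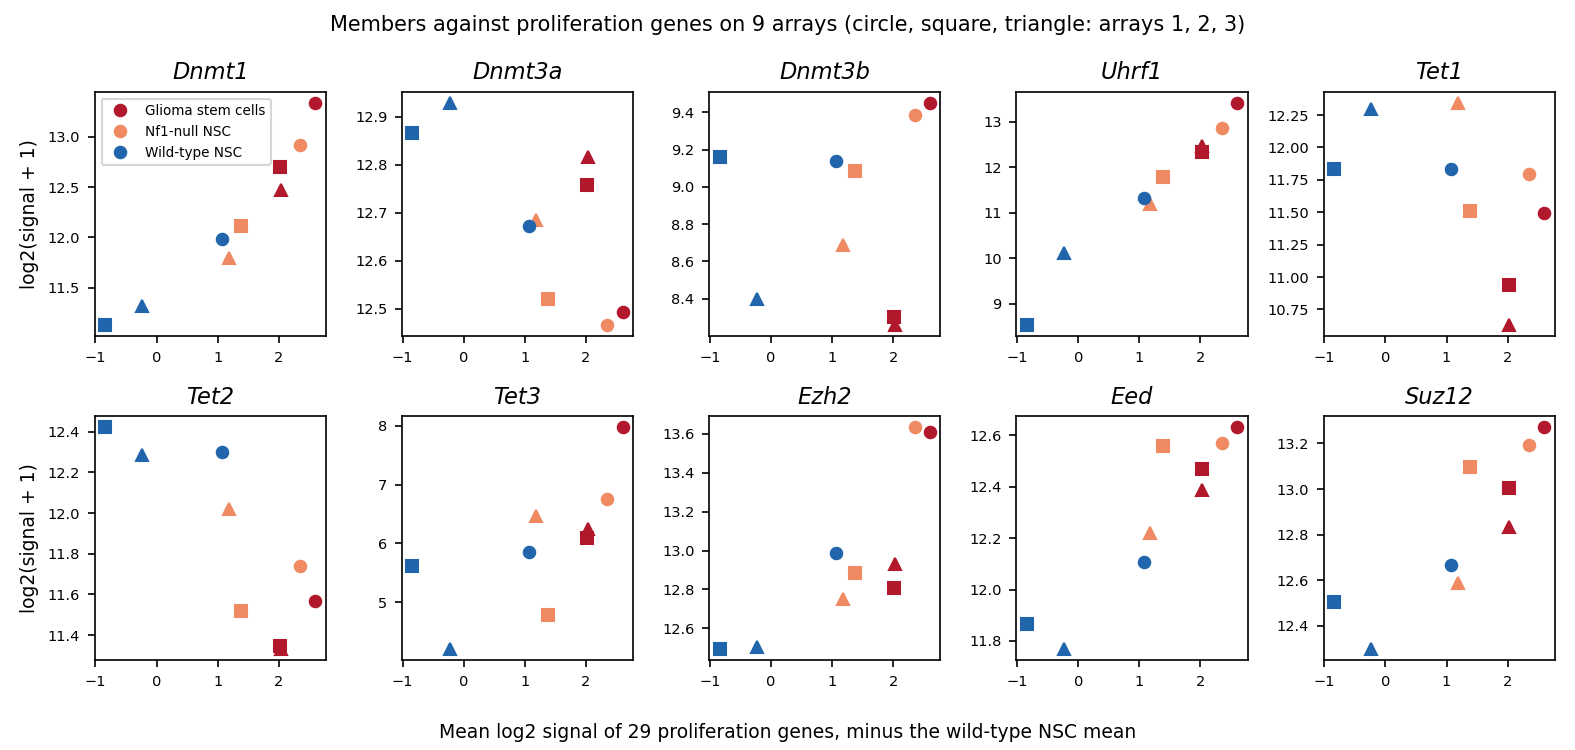
log2(signal + 1) of each of the 10 genes (vertical axis) against the mean log2 signal of 29 proliferation genes minus its wild-type NSC mean (horizontal axis) on the 9 arrays; colours give the groups and symbols the array numbers. Wild-type array 1, at 1.07, lies to the right of the other wild-type arrays. Dnmt1, Dnmt3b, Uhrf1, Tet3, Eed and Suz12 are highest on GSC array 1, the array furthest to the right, while Ezh2 is highest on Nf1-null array 1.

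Markers of other cell types moved as well. Summed signals of 6 astrocyte markers were 62531 to 86900.0 in GSC, 73354 to 139794 in Nf1-null NSC, against 173728 to 204927 in wild-type NSC. Of the 6, 3 fell in GSC against wild-type NSC (9.06% of all genes called) and 3 against Nf1-null NSC (1.75%). They were Aldh1l1, Aqp4 and Gja1 in both cases, Gja1 with an adjusted p of 0.0520 against Nf1-null NSC with the block. Between the NSC groups limma called 0, with 2 at an unadjusted p under 0.05 (16.8% of all genes). S100b of the same list was higher in GSC, without a call. It read 17467.7, 34245.9 and 33524.6 in GSC, 3070.8, 3884.3 and 10179.4 in Nf1-null NSC, against 4451.4, 6913.8 and 11308.3 in wild-type NSC, 3.86-fold higher in GSC than in wild-type NSC (adjusted p = 0.0656, with the trend 0.0210) and 5.49-fold higher than in Nf1-null NSC (0.0809, with the trend 0.0204). Of 10 markers of neural stem cells 0 rose and 3 fell in GSC against wild-type NSC, where 9.06% of all genes were called. Of the 3, Msi1 (adjusted p = 0.0656) and Slc1a3 (0.0875) missed the threshold with the replicate block and Sox9 did not. For Nes all GSC arrays lay above all wild-type arrays, without a call (log2 difference 1.48, adjusted p = 0.0558, with the trend 0.0165). Of the 10 differences 3 were positive and 7 negative.

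Summed signals of 7 neuronal markers were 3229 to 4736 in GSC, 2387 to 2753 in Nf1-null NSC, against 4276 to 6748 in wild-type NSC. Rbfox3 (adjusted p = 0.0187) and Snap25 (0.0221) fell in GSC against wild-type NSC, and Tubb3 rose against Nf1-null NSC (4.36-fold, adjusted p = 0.0344, and 0.0612 with the replicate block). Against wild-type NSC Tubb3 was 2.21-fold higher without a call (adjusted p = 0.0787, with the trend 0.0392). The neuronal list had no common direction, with 3 positive and 4 negative differences in GSC against each NSC group. Summed signals of 5 oligodendrocyte precursor markers were 115799 to 131495 in GSC, 85480 to 103952 in Nf1-null NSC, against 103909 to 117447 in wild-type NSC. None of them was called by limma, with 3 at an unadjusted p under 0.05 against Nf1-null NSC (16.5% of all genes). Against wild-type NSC 1 had such a p, a count without a share over all genes beside it. With the trend Cspg4 (adjusted p = 0.0371) and Olig2 (0.0261) passed as higher than in Nf1-null NSC, where 4.05% of all genes passed. Mbp, a myelin gene among 5 oligodendrocyte markers, read 2601.3, 29057.3 and 65239.2 in GSC, 376.5, 189.2 and 297.4 in Nf1-null NSC, against 2008.8, 495.4 and 6599.4 in wild-type NSC. Its GSC arrays spread widely and lay above all Nf1-null arrays (61.3-fold, adjusted p = 0.0799, with the trend 0.0204). The list had no common direction, with 3 positive and 2 negative differences in GSC against each NSC group. Cnp (-0.83, adjusted p = 0.128) and Mobp (-1.72, adjusted p = 0.294) were lower in GSC than in wild-type NSC, without a call. In the GSC group, which had the lowest median astrocyte marker signal, Tet2 was lowest and Uhrf1 highest, and the part of cell type in the differences of the 10 genes was not tested.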

How the data were processed

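RNA of cultured cells was measured on 9 Affymetrix arrays after biotin labelling, with 100 ng of total RNA as the input, as the labels' protocols state. The deposited values are intensity values per probe set on a linear scale, and the sources used here do not name the software behind them. With the dimmest and the brightest 2% of probe sets left out, each array had a mean signal of 1500, so a difference in total RNA between samples is not kept. Median signals were 264.7 to 287.4.

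Of 45101 probe sets, 64 were controls, 34945 had 1 symbol, 932 several and 9160 none, and probe sets without exactly 1 symbol were left out. The intensities deposited by the authors were turned into log2(value + 1). The probe set with the highest mean over the arrays stood for its gene, which was a choice among several for 9010 of 18193 genes. limma 3.58.1 (R 4.3.3) fitted 3 group means to all 9 arrays without a trend, with 6 residual and 1.63 prior degrees of freedom. All tests were two-sided, the threshold was an adjusted p (Benjamini-Hochberg) under 0.05, and errors of differences are moderated standard errors. The same fit over 34945 probe sets gave the values per probe set. Scripts were tested on simulated data. Promoter windows came from RefSeq (GRCm38.p6), and figures were drawn with matplotlib 3.10.9.

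The members and gene lists were chosen with earlier results of these data known. The genes named were all 10 members, Nf1, up to 4 genes with the smallest adjusted p among those called per list and comparison (up to 2 where none was called, as values only) and the 3 brighter genes most like each called member. Uhrf2, Cxxc5, Idh1, Idh2 and the cell type markers were named outside this rule.

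Whether equal replicate numbers pair arrays was checked by correlating each array's deviations from its group mean over the 9097 brighter genes. It was 0.64, 0.24 and 0.59 for same-numbered Nf1-null and wild-type NSC arrays (0.13, 0.05 and 0.17 over all genes), so these were read as paired, from the data and not from the labels. GSC gave 0.30, 0.12 and 0.11 with Nf1-null NSC, where differently numbered arrays reached 0.11, and 0.24, 0.05 and 0.20 with wild-type NSC. Alternatives were other normalizations, pseudocounts, probe set choices, filters, variance priors, array weights, the replicate block, 6-array fits, thresholds and each array left out.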

Additional observations from a re-analysis of the deposited data

How the results depend on the processing

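Of the alternatives to the 30 differences of single genes, 631 kept direction and side of the threshold, 45 passed it anew and 6 lost it. The 6 losses were all of Tet2 in GSC against wild-type NSC, with the most variable probe set and without 5 single arrays, and 18 of its 24 alternatives passed (log2 difference -0.997 to -0.85, adjusted p 0.00415 to 0.0905). For GSC against wild-type NSC the number of the 10 genes called, 1 in the fit reported, is given here. Beside it stands the share called among all genes that the same fit tested. It was 2 with a pseudocount of 16 (10.4%), 0 with the most variable probe set (4.98%), 5 over the brighter genes (27.2%), 4 without the dimmest 25% of genes (18.2%), 5 with a mean-variance trend (14.7% plain, 15.2% robust), 5 with array weights (19.3%), 3 with the replicate block (8.44%), 7 with the block over the brighter genes (33.1%) or with the trend (18.5%), 5 at an adjusted p under 0.1 (16.5%), 0 under 0.01 (0.687%) and 0 to 1 with 1 array left out (1.18% to 9.65%), where the gene called without wild-type array 1 was Uhrf1 and not Tet2. For GSC against Nf1-null NSC it was 0, and 1 (Dnmt1) with the block over the brighter genes (10.4% of those genes) or with the trend (6.23% of all genes). For Nf1-null against wild-type NSC it was 0, and 4 with the same 2 block fits (11.9% and 5.35%). The replicate block alone changed no other count of these genes. With the trend and 1 array left out, an alternative chosen after seeing the data, the counts were 1 to 6, 0 to 1 and 0 to 2 in these comparisons. The same fits called 6.98% to 16%, 1.07% to 7.75% and 0.0165% to 4.69% of all genes. Over all genes and all these alternatives the counts ranged from 125 to 3515 for GSC against wild-type NSC (1649 reported). They were 21 to 1410 for GSC against Nf1-null NSC (319) and 0 to 1081 for Nf1-null against wild-type NSC (0).

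Directions turned 23 times, all for uncalled differences. In GSC against Nf1-null NSC they were Dnmt3b with the most variable probe set (0.0804), Ezh2 with array weights (-0.23) and without Nf1-null array 2 (-0.08), Nf1-null array 3 (-0.14) or GSC array 1 (-0.22, highest 0.30 with 1 array left out), Eed with the mean of its probe sets (-0.30), the most variable one (-0.65), without Nf1-null array 3 (-0.0701) or GSC array 1 (-0.02, highest 0.105), and Suz12 without Nf1-null array 3 (-0.11) or GSC array 1 (-0.04, highest 0.19). In GSC against wild-type NSC they were Dnmt3a (0.34 with the mean, 0.72 with the most variable probe set) and Eed (-0.26 and -1.11). In Nf1-null against wild-type NSC they were Dnmt3a with the most variable probe set (0.51), Dnmt3b (-0.22 with the mean, -0.59 with the most variable, -0.10 without wild-type array 3, -0.01 without Nf1-null array 1, highest 0.33), Tet1 (0.05 without wild-type array 3, 0.0805 without Nf1-null array 2, lowest -0.34) and Eed with the most variable probe set (-0.46). The values with the most variable probe set were those of a dimmer one, 1423064_at for Dnmt3a, 1418351_a_at for Dnmt3b and 1453830_at for Eed. The means over probe sets include these. The cause of the other turns was not tested. Tet3 and Dnmt3b were too dim for the fits over brighter genes.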

Other observations

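The genes whose log2 signals were most like those of the other members over the 9 arrays, among the 9097 brighter genes, are given here as values only, since those members did not pass the test. For Uhrf1 they were Cenpe (Pearson r = 0.997), Ttk (0.993) and Cdk1 (0.991), all with roles in mitosis. For Dnmt1 they were Ung (0.984), a uracil DNA glycosylase, Tmpo (0.983) and Nucks1 (0.979). For Eed they were Chek1 (0.991), a checkpoint kinase, Hmgb2 (0.991) and Cse1l (0.989), and for Suz12 Kmt5a (0.991), the histone H4 lysine methyltransferase, Cse1l (0.987) and Dctpp1 (0.986). For Ezh2 they were Ppil1 (0.986), Znhit3 (0.969) and Skp2 (0.966). For Tet1 they were Hey1 (0.978), a Notch target, Tmem203 (0.975) and Bmf (0.973). Arrays of 1 group share their condition, so these values carry no test.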
